A study of Rattus norvegicus with 3 samples.

Results

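The genes described here encode the cell adhesion molecules and membrane scaffold of the node of Ranvier and the axon surface. They are CNTN1, CNTN2, CNTNAP1, CNTNAP2, NFASC, NRCAM, ANK3, SPTBN4, NCAM1 and L1CAM, chosen by their symbols, and 8 of the 10 have an entry among the 12771 entries of the deposited table. NFASC and SPTBN4 have no entry under their symbol or a RefSeq synonym, so their levels were not analysed here. A missing entry is not a measured level of 0.

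RNA was sequenced from the supernatant of rat spinal cord after cold-active protease digestion and low-speed removal of the cells, a fraction prepared to enrich for axonal RNA. The animals were 3-month-old female Sprague Dawley rats. Every rat had the lamina at T9 removed, the SCI rats were also given a cord contusion there, the No-SCI rats were not, and cord from T8, rostral to the lesion, was collected 24 h afterwards. The labels name 2 libraries for No-SCI and 1 for SCI, and the methods speak of 2 animals in each condition. The table gives each gene 1 pooled value per group in FPKM (fragments mapped to a transcript, divided by its length and by the size of the library), with no value per library and no read count. The spread between replicates and the number of reads behind a gene's value are not in the table, so no error, n or test is given, and each comparison is a description of 2 group values.

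At a node of Ranvier, the gap between adjacent myelin segments, voltage-gated sodium channels are held in the axon membrane by ankyrin-G (ANK3) and beta-IV spectrin (SPTBN4), together with the adhesion molecules neurofascin (NFASC) and NrCAM (NRCAM). At the flanking paranode, contactin-1 (CNTN1) and Caspr (CNTNAP1) on the axon bind a glial form of neurofascin and attach the myelin loops. Beyond it, at the juxtaparanode, contactin-2, also called TAG-1 (CNTN2), and Caspr2 (CNTNAP2) gather Kv1 potassium channels. NCAM1 and L1CAM are immunoglobulin adhesion molecules of the axon shaft and growth cone. Several of these genes are not confined to neurons, since oligodendrocyte lineage cells also make contactins, neurofascin and NCAM1.

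All 8 listed genes were lower after SCI, and 6 of them were at least 2-fold lower: CNTN1, CNTN2, CNTNAP1, L1CAM, ANK3 and NCAM1. None was at least 2-fold higher. Over all entries, 12.1% were at least 2-fold lower and 7.96% at least 2-fold higher, and 56.3% were lower by any amount. The median log2 ratio of SCI to No-SCI over the 8 genes was −1.37, against −0.12 over all entries. Centring all entries at 0 adds 0.12 to every log2 ratio, and no gene named as 2-fold lower among the 8 crossed the 2-fold line under it. At a 1.5-fold limit 7 of the 8 were lower (26.3% of all entries) and none higher (16.9%), and at a 3-fold limit 3 were lower (3.27%) and none higher (3.17%).

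**Figure D1:**
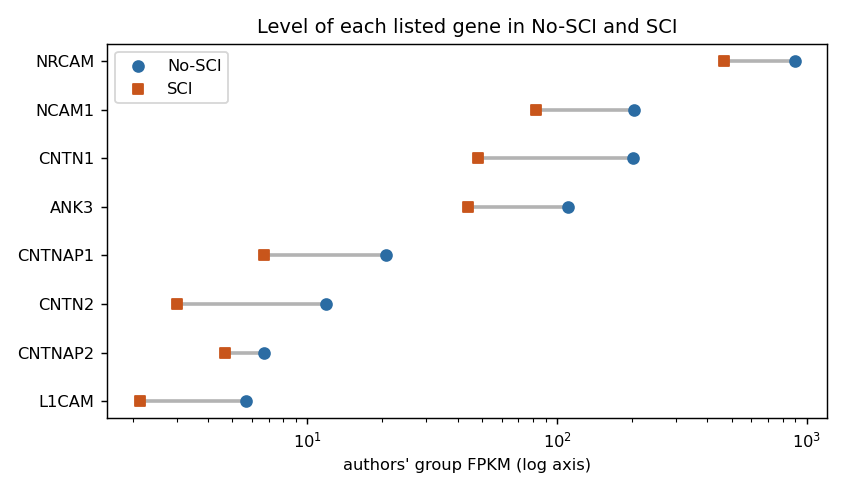
Authors' group FPKM (log axis) of the 8 listed genes, with circles for No-SCI and squares for SCI joined by a line, and 1 pooled value per group and no error bar available. Every SCI value lies to the left of its No-SCI value, and the genes run from NRCAM, at 894 FPKM in No-SCI, to L1CAM, at 5.69 FPKM.

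The paranodal pair was low in SCI in both its parts. CNTN1, the glycolipid-anchored axonal component of the paranodal junction, had 202 FPKM in No-SCI and 48.3 FPKM in SCI, which is 4.17-fold lower (log2 ratio −2.06). It had the lowest log2 ratio of the 8 genes on the values as deposited, where 138 of all entries had a lower one. With 1 subtracted from every value the lowest was that of CNTN2 (−2.45, against −2.08 for CNTN1). CNTNAP1, which travels to the membrane in complex with contactin-1, had 20.8 FPKM in No-SCI and 6.68 FPKM in SCI, 3.10-fold lower (log2 ratio −1.63). In No-SCI the level of CNTN1 was 9.71 times that of CNTNAP1, and in SCI 7.23 times.

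The juxtaparanodal pair differed between its parts. CNTN2 had 11.9 FPKM in No-SCI and 3.0 FPKM in SCI, 3.97-fold lower (log2 ratio −1.99). CNTNAP2, which binds contactin-2 and positions Kv1 channels, had 6.71 FPKM in No-SCI and 4.68 FPKM in SCI, 1.43-fold lower (log2 ratio −0.52), the smallest difference of the 8 genes. CNTN2 was thus 1.78 times as abundant as CNTNAP2 in No-SCI, whereas in SCI CNTNAP2 was 1.56 times as abundant as CNTN2. This was the one change in the order of levels among the 8 genes, and without a spread between libraries it is not known whether neighbours in that order differ.

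Among the node scaffold genes, ANK3, the anchor of nodal sodium channels and of NrCAM and neurofascin, had 110 FPKM in No-SCI and 43.9 FPKM in SCI, 2.51-fold lower (log2 ratio −1.33). NRCAM was the most abundant of the 8 genes in both groups, at rank 184 of all entries in No-SCI with 894 FPKM and at rank 430 in SCI with 466 FPKM. Its level was 1.92-fold lower in SCI (log2 ratio −0.94), just short of the 2-fold limit. The ratio of NRCAM to ANK3 was 8.11 in No-SCI and 10.6 in SCI.

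Of the adhesion molecules of the axon shaft, NCAM1 had 202 FPKM in No-SCI (percentile 92.1) and 82.6 FPKM in SCI (percentile 82.6 of all entries), 2.45-fold lower (log2 ratio −1.29). L1CAM, a relative of NrCAM that promotes axon growth and fasciculation, was the least abundant of the 8 genes, with 5.69 FPKM in No-SCI and 2.14 FPKM in SCI, 2.66-fold lower (log2 ratio −1.41). NRCAM, of the same L1 family, was 157 times as abundant as L1CAM in No-SCI. No value in the table lies below 1, so the ratio of a gene as low as L1CAM would be understated if a constant had been added. With 1 subtracted from both values its log2 ratio was −2.04.

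The 8 genes span the range of abundance, with 5 above the median of all entries in No-SCI (17.2 FPKM) and 3 below it. When each was set beside entries of like mean level, in 10 abundance groups of about 1277 entries each, the log2 ratios of 7 of the 8 lay in the lowest 10% of their group. They ran from percentile 1.21 for CNTN1 to 8.65 for NRCAM, and CNTNAP2 lay at percentile 34.4. The most abundant group, which holds NRCAM, had a median log2 ratio of 0.08.

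**Figure D2:**
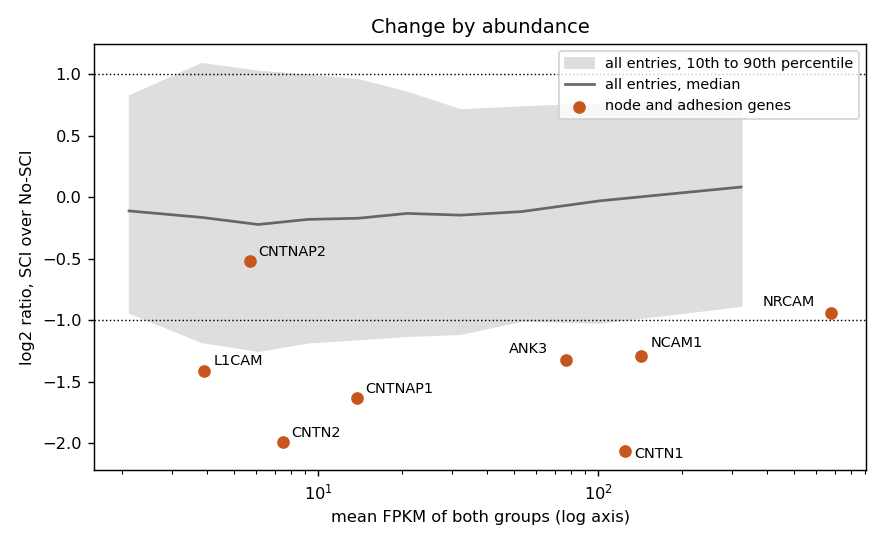
Log2 ratio of SCI to No-SCI against the mean FPKM of both groups (log axis), with the 8 listed genes as labelled points, the median of all entries in each abundance group as a line, the 10th to 90th percentile of those entries shaded, and 2-fold in either direction dotted. CNTN1 (−2.06) and CNTN2 (−1.99) have the lowest ratios at mean levels far apart, and CNTNAP2 (−0.52) is the listed gene inside the shaded band.

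The promoters of the genes can be set beside these ratios. A RefSeq table of the GRCr8 assembly held a start site for 5 of the 10 genes, 3 of which have a value. The 250 bases before the start of CNTN1 (chr7:125252060-125252309, plus strand), CNTN2 (chr13:46528026-46528275, minus strand) and ANK3 (chr20:18929178-18929427, minus strand) are printed 5′ to 3′ in the direction of the gene, because these 3 genes were all at least 2-fold lower in SCI. Capitals mark CpG dinucleotides. The starts used for CNTN1 and ANK3 lie 109.7 kb and 296 kb into the annotated span of their gene, and which start the RNA came from cannot be read from FPKM values.
CNTN1: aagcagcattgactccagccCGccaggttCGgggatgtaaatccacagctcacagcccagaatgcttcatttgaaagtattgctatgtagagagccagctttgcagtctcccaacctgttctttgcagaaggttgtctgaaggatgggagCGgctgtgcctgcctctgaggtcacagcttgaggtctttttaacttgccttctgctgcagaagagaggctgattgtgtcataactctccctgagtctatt
CNTN2: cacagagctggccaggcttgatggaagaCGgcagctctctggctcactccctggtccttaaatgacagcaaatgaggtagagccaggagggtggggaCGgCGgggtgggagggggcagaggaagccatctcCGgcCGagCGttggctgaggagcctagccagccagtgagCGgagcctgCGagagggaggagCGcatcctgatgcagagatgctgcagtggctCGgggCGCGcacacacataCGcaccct
ANK3: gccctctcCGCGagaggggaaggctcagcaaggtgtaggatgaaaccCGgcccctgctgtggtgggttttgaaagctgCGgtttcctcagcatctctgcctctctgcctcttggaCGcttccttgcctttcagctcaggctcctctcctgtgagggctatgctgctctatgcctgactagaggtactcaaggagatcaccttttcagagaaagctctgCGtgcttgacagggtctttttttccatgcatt

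The windows of the 2 contactins, whose log2 ratios were −2.06 and −1.99, differed in base composition, with 13 CpG in the window of CNTN2 and 3 in that of CNTN1. G and C made up 64.4% of the CNTN2 window, against a median of 51.2% over all 33469 windows, and the CNTN1 window lay just below that median. The window of ANK3 had 54.8% G and C and 6 CpG, where the median of all windows was 5 CpG. Searched on both strands, none of the 3 windows held a GC box (GGGCGG, in 30.5% of all windows), a TATA box (TATAAA, 12.9%), a CCAAT box (CCAAT, 34.0%), an AP-1 element (TGANTCA, 6.34%) or a cAMP response element (TGACGTCA, 1.59%). That says only that these letters are not in these windows.

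CNTN2 and NFASC are adjacent protein-coding genes in that assembly, and CNTN2 is listed whereas NFASC is not. No other gene of the contactin, Caspr and L1 families is listed. Of 6 contactins CNTN1 and CNTN2 have an entry, and of 7 Caspr family genes CNTNAP1 and CNTNAP2. CHL1, the remaining L1 family gene, has no entry.

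The wider set of genes of the node and its neighbouring domains was taken from lists by known location. Without the 10 genes above these lists hold 76 genes, of which 51 have an entry. In SCI 43 of the 51 were lower and 8 higher, with a median log2 ratio of −0.59, where 56.3% of all entries were lower. At least 2-fold lower were 19 (37.3%, against 12.1% of all entries), and 1 was at least 2-fold higher (7.96% of all entries). The same shares over all entries stand beside the counts of each list below. With all entries centred at 0 the split was 41 lower and 10 higher. Then 16 were at least 2-fold lower (9.59% of all entries) and 2 at least 2-fold higher (9.55%).

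Ankyrins and spectrins were lower without exception among those listed. All 6 of 10 with an entry had a lower value in SCI, 5 of them at least 2-fold (4 after centring), with a median log2 ratio of −1.28. ANK3, described above, is counted in each of these numbers. ANK2, the gene of ankyrin-B, which lies at the paranode and along the axon shaft, had 820 FPKM in No-SCI and 95.2 FPKM in SCI, a log2 ratio of −3.11 and the lowest of any gene on these lists. ANK2 was 7.44 times as abundant as ANK3 in No-SCI and 2.17 times in SCI. The spectrin chains SPTAN1 (142 and 61.0 FPKM) and SPTB (6.35 and 1.69 FPKM) were 2-fold lower or more, and SPTBN1 (52.8 and 28.4 FPKM) was within 2-fold.

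The juxtaparanodal list of Kv1 channels and their partners had 9 of 12 genes listed, 5 at least 2-fold lower and none at least 2-fold higher, with a median log2 ratio of −1.32. KCNA2, the Kv1.2 channel subunit, had 19.4 FPKM in No-SCI and 6.41 FPKM in SCI (log2 ratio −1.60), whereas KCNA1, the Kv1.1 subunit of the same channels, had 12.3 and 8.81 FPKM (−0.48). The others past 2-fold were KCNAB1, an auxiliary subunit of Kv1 channels (−1.48), the secreted LGI1 (−1.32) and LGI3 (−2.29), and the scaffold DLG2, or PSD-93 (−2.22). EPB41L3, the protein 4.1B that links the Caspr proteins to the cytoskeleton, was close to level at 128 and 110 FPKM (−0.22).

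The nodal channels did not follow one direction. The sodium channel alpha subunits SCN1A, SCN2A, SCN3A and SCN8A and the potassium channel KCNQ3 have no entry, so the pore-forming subunits that ANK3 anchors could not be described. Of the 6 listed genes, SCN3B, a sodium channel beta subunit, was at least 2-fold lower (6.27 and 3.04 FPKM, log2 ratio −1.05, within 2-fold once all entries were centred at 0). KCNK2, the leak potassium channel TREK-1, was at least 2-fold higher, with 2.41 FPKM in No-SCI and 12.2 FPKM in SCI (log2 ratio 2.34). For so short a list, 1 of 6 in each direction is close to the shares over all entries (12.1% lower and 7.96% higher).

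**Figure D3:**
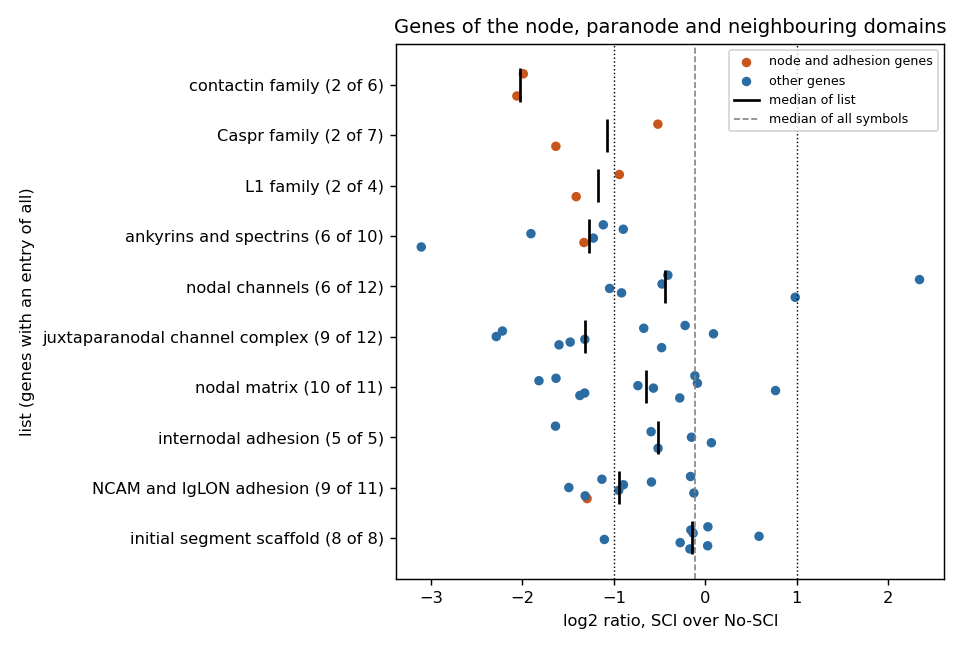
Log2 ratio of SCI to No-SCI of each gene with an entry on 10 lists of the node and its neighbouring domains. The 8 listed node and adhesion genes are in orange and all other genes in blue. A bar marks the median of each list, a dashed line the median of all symbols and dotted lines 2-fold. The vertical spread only separates points. Ankyrins and spectrins all lie left of the dashed line, nodal channels lie on both sides of it, and the initial segment scaffold is centred near it.

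In the matrix around the node 4 of 10 listed genes were at least 2-fold lower and none higher, with a median log2 ratio of −0.65. They were the proteoglycans BCAN (212 and 82.1 FPKM, −1.37) and NCAN (−1.32), the receptor phosphatase PTPRZ1 (−1.82) and OMG (−1.63), an oligodendrocyte and neuronal surface protein. BCAN is the 1 gene of the lists with 2 entries, and its less abundant entry had 70.0 and 39.4 FPKM (−0.83), with which the count would be 3 of 10. HAPLN2, the link protein of central nodes, was higher by less than 2-fold (36.6 and 62.5 FPKM, 0.77). Among the NCAM and IgLON adhesion genes, all 9 listed were lower, 4 of them at least 2-fold, with NCAM1, described above, counted in both numbers. NCAM2, the paralog of NCAM1, had a log2 ratio of −1.31 at 0.0381 of the level of NCAM1 in No-SCI, and THY1, an abundant axonal surface protein, had 297 and 136 FPKM (−1.13).

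Along the internode, 1 of the 5 genes, MAG, the myelin partner of axonal gangliosides, was at least 2-fold lower (272 and 87.4 FPKM, −1.64). MAG also stands on the oligodendrocyte list. The axonal and glial nectin-like genes CADM1, CADM2, CADM3 and CADM4 had log2 ratios from −0.59 to 0.07, and all 4 lay within 2-fold. Of 8 scaffold genes of the axon initial segment, where ankyrin-G also gathers sodium channels, MAPRE3, a microtubule end-binding protein, was at least 2-fold lower (−1.10, within 2-fold after centring), and the median was −0.14. TRIM46, which organises microtubules there, had 20.8 and 18.5 FPKM (−0.17). At least 2-fold lower were 1 of 5 internode genes (20%) and 1 of 8 initial segment genes (12.5%), against 12.1% of all entries. Neither count sets its list apart from all entries. The difference between these lists was not tested.

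Markers of cell types also had different levels in the 2 groups. Beside the counts below, 12.1% of all entries were at least 2-fold lower and 7.96% at least 2-fold higher. On a list of oligodendrocyte genes 13 of 21 were at least 2-fold lower (11 after centring) and none higher, with a median log2 ratio of −1.23 and summed levels of 91098 FPKM in No-SCI and 49389 FPKM in SCI. Its most abundant genes included MOBP (log2 ratio −0.68) and BCAS1 (−0.98), and MBP has no entry. On a neuronal list 17 of 20 were lower, 4 of them at least 2-fold, and none was at least 2-fold higher, with a median of −0.46. Its summed levels were 2207 and 2029 FPKM, or 932 and 623 FPKM without GAP43, a sum added after the values were seen. Its most abundant genes were GAP43, a growth cone protein with 1275 and 1406 FPKM (0.14), the RNA-binding protein gene CELF4 (−0.69) and the neuronal hydrolase gene UCHL1 (−0.44), and SNAP25, NEFM and CHAT have no entry.

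The other lists went both ways, beside 12.1% of all entries at least 2-fold lower and 7.96% at least 2-fold higher. Of 11 astrocyte genes 6 were at least 2-fold lower (5 after centring, median −1.01, sums 25657 and 21398 FPKM, no entry for GFAP, AQP4, SLC1A3, S100B and ALDOC), and of 9 oligodendrocyte precursor genes 4 were (median −0.46, sums 175 and 117 FPKM). Of 11 skeletal muscle genes 10 were at least 2-fold lower (median −2.09, sums 441 and 49.0 FPKM). Of 13 meningeal fibroblast genes 12 were at least 2-fold higher (median 2.56, sums 76.5 and 895 FPKM). Of 7 Schwann cell genes 3 were at least 2-fold higher and 1 lower (median 0.60, sums 5438 and 1578 FPKM). Microglia and macrophage genes (15 listed, 3 at least 2-fold lower, or 2 after centring, and 2 higher, median −0.05, sums 1280 and 1461 FPKM) and endothelial genes (7 listed, 2 at least 2-fold higher, median 0.17, sums 49.8 and 71.6 FPKM) had medians nearer to 0, with the former turning to above 0 (0.07) on centring. The part of these shifts in the lower levels of the node and adhesion genes was not tested. In a bulk fraction, less material from a cell type and less RNA in each of its cells or axons cannot be told apart.

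**Figure D4:**
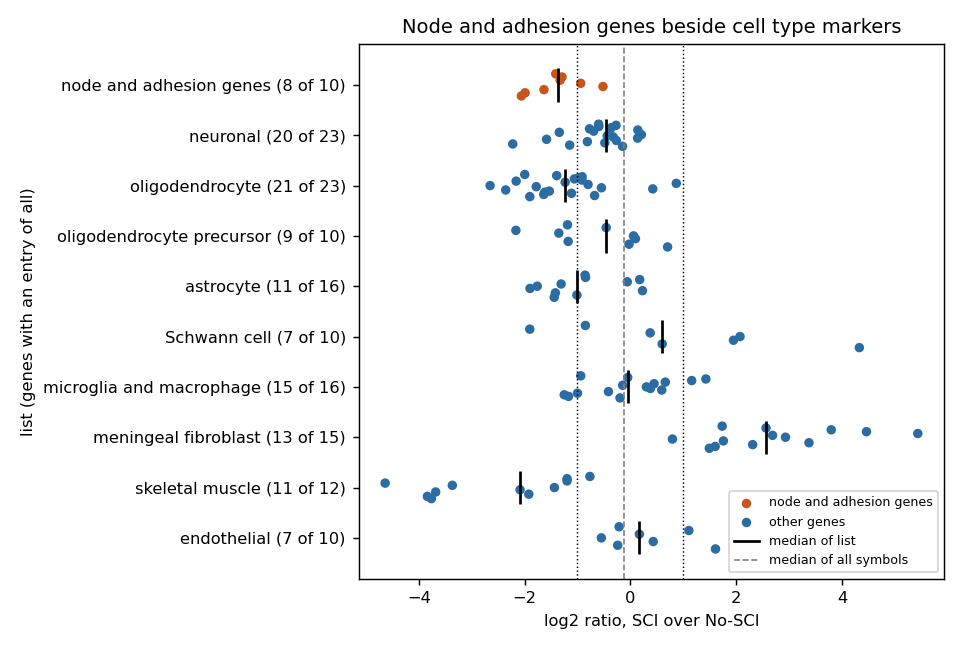
Log2 ratio of SCI to No-SCI of the 8 listed node and adhesion genes (orange) and of marker genes of 9 cell types (blue), with a bar at each median, a dashed line at the median of all symbols and dotted lines at 2-fold; the vertical spread only separates points. The median of the node and adhesion genes (−1.37) lies below those of the oligodendrocyte (−1.23) and astrocyte genes (−1.01). The medians of the neuronal and oligodendrocyte precursor genes (both −0.46) are higher. Skeletal muscle genes lie lowest and meningeal fibroblast genes highest.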

How the data were processed

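Reads of strand-specific, ribosomal RNA depleted libraries were downsampled by the authors to the smallest library, aligned to rn6 with STAR 2.5.4b, and summarised with Cuffdiff of cufflinks 1.3.0 (methods and submitters' processing notes). The authors deposited FPKM as group estimates, with 1 value per entry for each condition. 0 columns of values were left without a group. The table also holds the authors' fold changes, p-values and q-values, which were not used. For all 8 listed members, and for 58.6% of all entries, at least 1 of the values carries over 6 significant digits, so a value may be a sum over several transcript entries, which limits comparisons of level between genes.

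Log2 ratios (SCI over No-SCI) were taken on the values as given, and a gene was counted as lower or higher at 2-fold or more. Percentiles were taken among all entries and among 10 groups of like mean FPKM. Of 13 duplicated symbols the more abundant entry was kept, and no member was among them. No whole reads could be recovered from group values, and no confidence interval was possible. The members and lists were chosen with earlier results of these data known. Named genes were all members, genes of the node lists, and for each cell type list its 3 most abundant genes and those without an entry, of which a selection is given. Protein sequences were not used here. Some genes of the lists are counted but not reported by name here. All 10 member symbols matched the GRCr8 RefSeq table, whose gene coordinates are printed for promoter windows alone, since the values were made on another assembly. Alternatives were pseudocounts of 1 and 0.1, subtraction of 1, centring, scaling to equal totals or upper quartiles, other fold limits, a mean of at least 10 FPKM, means for medians and leaving out each gene. The ratio, call and percentile steps were tested on simulated data. Python 3.11.15 with numpy 2.4.6, pandas 2.3.3 and matplotlib 3.10.9 was used.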

Additional observations from a re-analysis of the deposited data

How the results depend on the processing

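The direction and the side of the 2-fold limit of each of the 8 listed genes were the same under all 6 alternatives of pseudocount, offset and scaling, 48 values in all. The median log2 ratio of −1.37 ran from −1.57 with 1 subtracted from every value to −1.25 with all entries centred at 0, and from −1.41 to −1.33 when 1 gene was left out in turn. Leaving out symbols listed more than once, an alternative chosen after seeing the data, removed no member. The count of 6 genes at least 2-fold lower became 3 at a 3-fold limit and 4 of the 5 members with a mean of at least 10 FPKM, and 11.3% of all entries with such a mean were at least 2-fold lower. The count at least 2-fold higher was 0 throughout. The median level of the 8 genes was 65.5 FPKM in No-SCI and 25.3 FPKM in SCI. Over all entries, centring moved the share of 2-fold calls that were lower from 60.2% to 50.1%, and scaling to the same upper quartile to 51.4%. No paired analysis was possible because the table holds 1 pooled value per group, and for the same reason no library could be left out. With no counts per gene, no counting error can be set beside a value; the lowest levels, L1CAM and CNTN2 in SCI, stand nearest to the table's minimum of 1.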

Other observations

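In the table, 29 entries share both group values with another entry, leaving aside entries at 1 in either group. None of the 8 listed node and adhesion genes and none of the wider node lists is among them. On the cell type lists MYH1 and MYH2, fast myosin heavy chains of skeletal muscle that lie next to each other in a gene cluster, share 2.71 FPKM in No-SCI and 1.18 FPKM in SCI. They were counted as 2 genes of the muscle list, and are named after their values were seen.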
